A study of Homo sapiens with 8 samples.

Results

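Acute myeloid leukemia often carries mutations in genes that write, read or remove marks on DNA and histones, hold chromatids together or cut introns out of transcripts. The 36 genes described here are the regulators of that kind named in the rule (DNA methyltransferases, TET dioxygenases and their helpers, Polycomb and histone methylation enzymes, cohesin subunits and splicing factors) and close relatives. They were found by symbol in the raw count table: 35 of the 36 had a row, among 23562 rows in all, and BCOR was not analysed here. The rule names genes and uses no measured level.

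All RNA was from OCI-AML5, an established cell line from a human acute myeloid leukemia. All 8 libraries came from cells given a lentivirus (lentiCRISPRv2) that carries Cas9 and 1 guide RNA. In 4 libraries, sgControl 1 to 4, the guide was a non-specific control, and in 4 libraries, sgCEBPD 1 to 4, it was aimed at CEBPD, the gene of the transcription factor C/EBP delta. Each library held another guide, so differences between guides are part of the spread in each group, and the labels do not mention picked clones or the time in culture. Polyadenylated RNA was sequenced to between 10217751 and 11521209 counts per library. Each guide had only 1 library, so the p-values below rest on the spread between libraries. In that spread, guide differences and technical differences cannot be told apart.

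Levels are given as CPM, counts relative to the total of the library after scaling by the trimmed mean of M values (TMM) over all 8 libraries. The targeted gene CEBPD had levels of 216, 203, 205 and 202 CPM in the controls, and of 106, 209, 194 and 164 CPM in sgCEBPD 1 to 4, which is no check of the labels because cut alleles can still be transcribed. The library sgCEBPD 3 stood outside the range of the other 7 libraries in 69.7% of the 13838 genes tested, and its values are given apart below. In it, 9 of the 11 measured monocyte and macrophage markers (12 fixed) were above all other libraries. LYZ (80.6 CPM) and S100A9 (1.08 CPM) lay within the range of the other 7 but below their means of 115 and 2.92 CPM. The 11 summed to 1146 CPM against 563 to 613 CPM in controls and 562 to 747 CPM in sgCEBPD 1, 2 and 4. Of 24 markers of cycling cells, 20 were below and 4 (CDT1, CCNB1, BUB1 and PLK1) above all other libraries. The 24 summed to 4509 CPM against 5912 to 6291 CPM in controls and 5927 to 6303 CPM in sgCEBPD 1, 2 and 4. Of the 4 measured lymphoid markers (6 fixed), 3 were above all other libraries, and their sum of 67.9 CPM, against 5.51 to 10.4 CPM elsewhere, was mostly CD3D (52.5 CPM), while CD79A (3.04 CPM) lay within the range of the others. Of the 7 measured neutrophil markers (10 fixed), 4 were above and 1 below all other libraries. They summed to 215 CPM in sgCEBPD 3, of which MMP9 made up 138 CPM, to 81.9 to 103 CPM in controls and to 55.9 to 58.8 CPM in sgCEBPD 1, 2 and 4. CTSG was lowest in sgCEBPD 3 (4.70 CPM), and ELANE and PRTN3 lay within the range of the others. The 3 measured erythroid and megakaryocyte markers (8 fixed) summed to 58.1 CPM, mostly ITGA2B (57.2 CPM), against 17.7 to 39.5 CPM elsewhere. The markers CD14 and CD3D were at 0 CPM in sgControl 1, 2 and 3. The 8 fixed markers of the labelled myeloid leukemia line were all measured and none was at 0 CPM. In sgCEBPD 3, 3 of them (PTPRC, SPI1 and CSF3R) were above and 4 (CD34, KIT, FLT3 and MPO) below all other libraries, and their sum was 2038 CPM against 1258 to 1519 CPM. In bulk RNA, fewer cells of a type and less RNA per cell cannot be told apart.

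As background, DNMT1 copies methylation onto new DNA strands after replication, while DNMT3A and DNMT3B set new methylation. TET enzymes oxidise methylated cytosine with alpha-ketoglutarate, which IDH1 and IDH2 make, and WT1 can bring TET2 to its targets. Polycomb group proteins and the KMT2, menin and DOT1L proteins place repressive and activating marks on histone H3, cohesin is a ring that holds sister chromatids and shapes chromatin loops with CTCF, and SF3B1, SRSF2, U2AF1 and ZRSR2 select splice sites.

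No measured gene of the list passed the test in either comparison. In edgeR's quasi-likelihood test on all 8 libraries, 0 of 35 were called at an adjusted p under 0.05, against 0.0795% of the 13838 genes tested (0.00723% higher and 0.0723% lower). At an unadjusted p under 0.05 there were 2 of 35 (5.71%), against 11.4% of all genes. Without sgCEBPD 3, again 0 of 35 were called, against 2.01% of 14047 genes (0.705% higher and 1.31% lower), and 7 of 35 (20%) had an unadjusted p under 0.05, against 15.5% of all genes. DESeq2 called 0 of 35 with 8 libraries, against 2.05% of all genes it adjusted. Without sgCEBPD 3 it called 2 of 35 (5.71%), TET2 and IDH2, against 4.24% of all genes it adjusted. All 35 passed the filter on low counts in both comparisons. The median log2 fold change (sgCEBPD over sgControl) of the list was 0.04 with 8 libraries and 0.02 without sgCEBPD 3, beside a median of 0.00 over all genes tested in each. Without sgCEBPD 3 the groups did not overlap for 7 of 35 (20%), against 14.4% of all genes. In 5 of them sgCEBPD was higher (6.89% of all genes) and in 2 lower (7.5%). With 8 libraries 2 did not overlap, IDH2 and ASXL2, against 9.59% of all genes, both higher (4.96%) and 0 lower (4.62%).

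The library sgCEBPD 3 differed from the rest in a few genes of the list. It was set against the mean of the other 7 libraries with 0.5 CPM added to both, and a gene was counted when the ratio passed 1.5-fold and the level lay outside the range of the other 7. By this rule 3 of 35 (8.57%) were higher (WT1, DNMT3A and IDH1), against 15.2% of all tested genes. Another 2 (5.71%) were lower (DNMT1 and SMC1A), against 15.1%. As 1 library, sgCEBPD 3 allows no test. Without the fold, 10 of the 35 lay above and 17 below all other libraries (34.8% and 34.9% of all genes), and 8 lay within their range. The lower genes nearest the limit of the rule were SMC1A (0.650-fold) and DNMT1 (0.664-fold) inside it and SRSF2 (0.724-fold) and EED (0.735-fold) outside it.

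**Figure D1:**
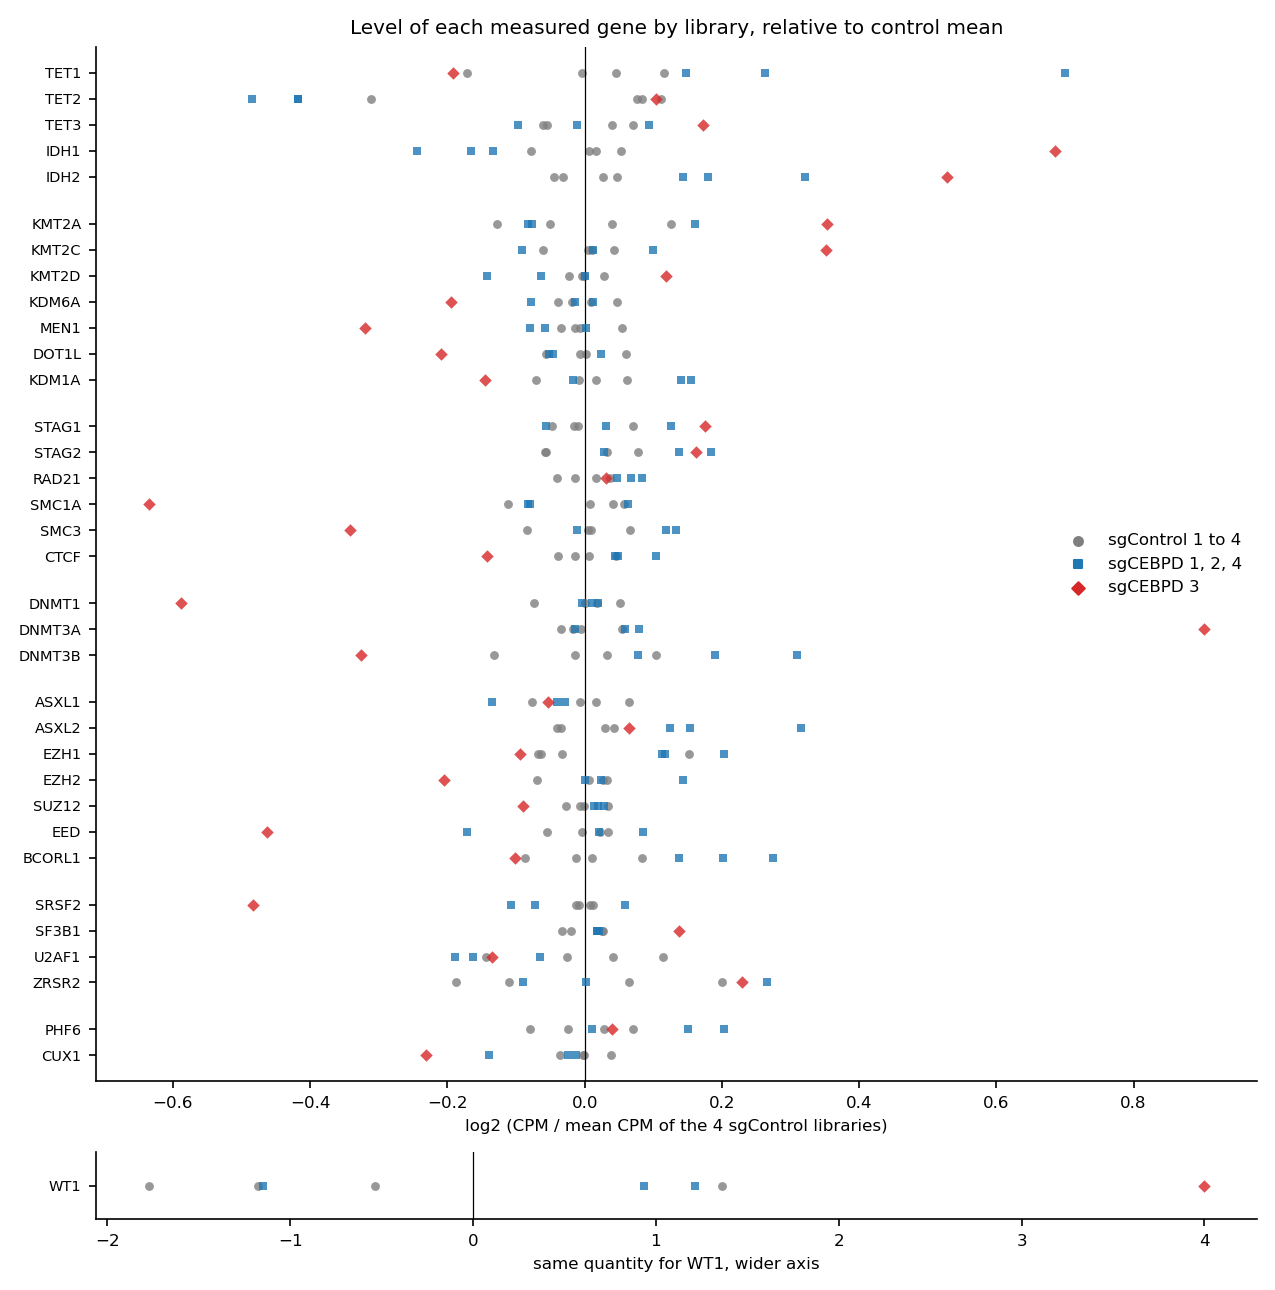
Each row is a gene and each point a library, on the axis of log2 CPM over the mean CPM of the 4 sgControl libraries, with grey circles for sgControl 1 to 4, blue squares for sgCEBPD 1, 2 and 4 and red diamonds for sgCEBPD 3. WT1 has an axis of its own. Most points lie close to 0, and the red diamonds of DNMT3A and IDH1 lie to the right and those of SMC1A and DNMT1 to the left of all other points in their rows.

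Printed here are the stretches before the outermost RefSeq starts of the 5 listed genes past the 1.5-fold rule in sgCEBPD 3. The stretch of TET2, which had the lowest adjusted p of the list without sgCEBPD 3, is printed too. These stretches are RefSeq sequences on GRCh38.p14, up to 250 bases before the outermost RefSeq start of each gene, written on the gene's strand. Each was cut at the first base inside an exon of that gene in GENCODE 29. For WT1, IDH1 and DNMT1 the cut took away the bases next to the RefSeq start. Capitals mark GC boxes (GGGCGG) and CCAAT boxes on either strand. The windows lie at chr11:32435631-32435789 (minus) for WT1, chr2:25342591-25342840 (minus) for DNMT3A, chr2:208255134-208255321 (minus) for IDH1, chr19:10195136-10195203 (minus) for DNMT1, chrX:53422729-53422978 (minus) for SMC1A and chr4:105145625-105145874 (plus) for TET2.
WT1: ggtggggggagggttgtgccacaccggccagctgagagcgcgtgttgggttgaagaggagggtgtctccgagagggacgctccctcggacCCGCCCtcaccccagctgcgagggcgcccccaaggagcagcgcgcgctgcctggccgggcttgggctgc
DNMT3A: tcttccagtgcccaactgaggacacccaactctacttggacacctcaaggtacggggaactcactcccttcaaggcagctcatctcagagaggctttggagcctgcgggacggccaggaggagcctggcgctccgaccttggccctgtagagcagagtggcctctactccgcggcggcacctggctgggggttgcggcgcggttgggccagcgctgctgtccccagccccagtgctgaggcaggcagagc
IDH1: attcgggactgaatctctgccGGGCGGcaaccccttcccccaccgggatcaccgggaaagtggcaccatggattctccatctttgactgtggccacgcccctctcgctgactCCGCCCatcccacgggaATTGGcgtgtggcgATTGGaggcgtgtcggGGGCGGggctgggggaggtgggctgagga
DNMT1: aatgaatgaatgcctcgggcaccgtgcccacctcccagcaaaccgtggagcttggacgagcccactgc
SMC1A: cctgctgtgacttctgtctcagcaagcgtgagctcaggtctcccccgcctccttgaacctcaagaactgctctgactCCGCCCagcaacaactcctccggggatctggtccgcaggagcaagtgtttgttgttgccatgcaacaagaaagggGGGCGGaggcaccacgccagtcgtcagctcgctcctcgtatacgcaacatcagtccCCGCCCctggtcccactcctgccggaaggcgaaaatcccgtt
TET2: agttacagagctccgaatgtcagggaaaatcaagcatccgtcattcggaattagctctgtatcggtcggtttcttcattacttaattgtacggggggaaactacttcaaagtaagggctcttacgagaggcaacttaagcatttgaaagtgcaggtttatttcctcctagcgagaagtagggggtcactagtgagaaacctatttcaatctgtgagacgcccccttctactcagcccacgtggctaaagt
IDH1 and SMC1A held 3 GC boxes each and WT1 held 1, and IDH1 also held 2 CCAAT boxes. The WT1 window was rich in G and C (73.0%), and the TET2 window was the poorest of the 6 (45.6%). TET2 has a further RefSeq start, with 5 GC boxes in the window before it. Windows before further RefSeq starts of DNMT3A held 0 to 3 GC boxes, so these counts depend on the start used. The DNMT1 and IDH1 windows lie inside the longer gene span that GENCODE 29 gives.

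Windows of 250 bases before a RefSeq start were found for 32 of the 36 genes, 57 windows in all. The letters TTGCNNAA, a common form of the C/EBP site searched on both strands, stood in 2 of the 57 (3.51%, in SMC3 and TET1), against 9.05% of all 35116 windows of the same length. CCAAT stood in 26.3% against 32.0%, and GGGCGG in 64.9% against 42.6%. Of 3 words of the E2F type, TTTCCCGC stood in 5.26% (SMC1A, STAG1 and SUZ12) against 1.39%, TTTGGCGC in 7.02% (CUX1, SF3B1 and STAG2) against 0.550%, and TTTCGCGC in 0 windows against 0.439%. TTTCCCGC of SMC1A lay in the window of another start than the one printed. The words can overlap each other, windows of 1 gene share bases, and a match is a description of these letters only.

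In the controls the list spanned a wide range of levels per length. IDH2 was highest at 119 ± 3.7 CPM per kilobase (kb) of merged exons (SD, n = 4), followed by DNMT1 (74.3 ± 2.7), RAD21 (74.1 ± 1.7) and SRSF2 (71.5 ± 0.59), whose libraries overlapped. SF3B1 stood at 59.5 ± 1.3 and SMC3 at 49.7 ± 2.1 CPM per kb. By merged exons DOT1L (27.0 ± 0.90), EZH2 (26.7 ± 0.85) and SUZ12 (26.5 ± 0.48) did not differ beyond their spread between libraries. With the longest transcript as the length, DNMT1 (134.5 CPM per kb) passed IDH2. By that length DOT1L stood at 40.9, SUZ12 at 38.7 and EZH2 at 33.2 CPM per kb, so this order depends on the length used.

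The members of a family had unequal levels. EZH2, the main methyltransferase of Polycomb complex PRC2, stood at 26.7 CPM per kb and its relative EZH1 at 9.29. The cohesin arm STAG2 stood at 25.2 and STAG1 at 11.3 CPM per kb. TET3 led the TET enzymes at 14.01 CPM per kb, TET2 stood at 5.75 and TET1 at 0.494. Among the large H3K4 methyltransferases KMT2D stood at 20.6, KMT2C at 7.46 and KMT2A at 3.77 CPM per kb, and DNMT3A (8.25) stood above DNMT3B (4.96). These levels use merged exons. With the longest transcript as the length each order was kept, but some genes lay closer together. By that length KMT2C stood at 8.90 and KMT2A at 7.09, and TET3 at 15.1 and TET2 at 9.32 CPM per kb.

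**Figure D2:**
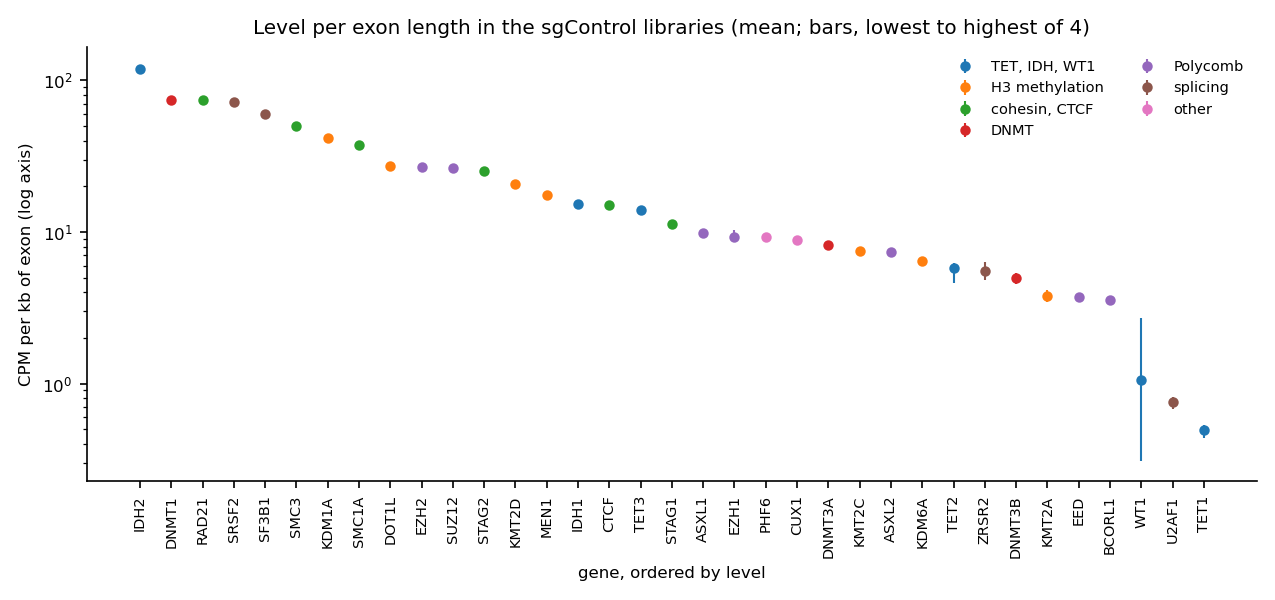
Genes are ordered by their mean level per kilobase of merged exons in the 4 sgControl libraries, on a log axis, coloured by role, with bars from the lowest to the highest of the 4 libraries. IDH2 is highest at 119 CPM per kb and TET1 lowest at 0.494, and WT1 has the widest bar.

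The level of U2AF1, the subunit that reads the end of the intron, is uncertain. GENCODE 29 lists a near-identical copy, U2AF1L5, on the same chromosome (chr21:6484623-6499261 against chr21:43092956-43107587), and 98.4% of the 75-base words of the longest U2AF1 transcript also occur in transcripts of the copy. U2AF1 had 78 to 99 counts per library and U2AF1L5 71 to 124, and together they gave 16.9 to 18.7 CPM in controls (1.63 CPM per kb). Its partner U2AF2 stood at 357 CPM in controls (86.8 CPM per kb). How reads that match both copies were counted is not given in the sources used here.

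Other shared sequence was smaller. On the same strand, 21.2% of the words of KMT2A were shared with a transcript of another gene, 13.0% of ZRSR2, 6.20% of SUZ12, 6.04% of SMC3 and 3.75% of KMT2C. On the opposite strand, 26.6% of STAG1 words overlapped PCCB, 27.1% of SRSF2 words overlapped MFSD11 and 25.1% of CTCF words an antisense transcript. The strand setting of the counting is not known, so reads of such partners cannot be told apart.

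Among the DNA methyltransferases, only sgCEBPD 3 stood apart in DNMT1 and DNMT3A. DNMT1, on chr19:10133345-10231286, stood at 728, 692, 754 and 737 CPM in sgControl 1 to 4, at 737, 733 and 726 CPM in sgCEBPD 1, 2 and 4, and at 484 CPM in sgCEBPD 3. Apart from sgCEBPD 3, the groups overlapped. The log2 fold change was -0.12 (SE 0.13, adjusted p = 0.709 in edgeR) with 8 libraries and 0.01 (SE 0.04, adjusted p = 0.947) without sgCEBPD 3. The sign without sgCEBPD 3 turned with library totals and when sgControl 2 was left out.

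DNMT3A, on chr2:25227855-25342590, went the other way in sgCEBPD 3. It stood at 96.9, 103, 98.0 and 98.9 CPM in controls, at 103, 105 and 98.2 CPM in sgCEBPD 1, 2 and 4, and at 185 CPM in sgCEBPD 3, which was 1.84-fold of the other 7 libraries. The other 7 lay within 96.9 to 105 CPM, with overlapping groups. In edgeR the log2 fold change was 0.31 (SE 0.20, adjusted p = 0.559) with 8 libraries and 0.04 without sgCEBPD 3. Raw counts are free of library scaling, and in them there were 0.383 DNMT3A reads per DNMT1 read in sgCEBPD 3 and 0.130 to 0.149 in the other 7.

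DNMT3B, the other enzyme of new methylation, stood at 24.7, 23.5, 22.7 and 21.0 CPM in controls, at 28.5, 24.2 and 26.2 CPM in sgCEBPD 1, 2 and 4, and at 18.3 CPM in sgCEBPD 3. The groups overlapped through sgCEBPD 2, and sgCEBPD 3 was the lowest library. Without sgCEBPD 3 the log2 fold change was 0.20 (SE 0.09, adjusted p = 0.307 in edgeR). UHRF1, which brings DNMT1 to newly copied DNA and was on the wider list below, had 174 CPM in sgCEBPD 3 against 294 to 398 CPM elsewhere. In the same library, 20 of the 24 cycling markers were below and 4 above all others. They summed to 4509 CPM there against 5912 to 6303 CPM elsewhere, and their part in the DNMT1 level was not tested.

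TET2 had the lowest adjusted p of the list without sgCEBPD 3, next to IDH2, while with 8 libraries IDH2, ASXL2, WT1 and STAG2 had lower ones. TET2, on chr4:105145875-105279816, stood at 99.9, 76.4, 100.4 and 102 CPM in sgControl 1 to 4 and at 70.9, 70.9 and 67.7 CPM in sgCEBPD 1, 2 and 4. In sgCEBPD 3 it stood at 102 CPM. The 3 libraries lay below every control and close together, sgControl 2 lay nearest to them, and sgCEBPD 3 was at the level of the other controls. Without sgCEBPD 3 the edgeR estimate was -0.44 on the log2 scale (SE 0.10), and its adjusted p was 0.0563. Leaving out sgControl 2 as well gave -0.53 with an adjusted p of 0.00243. DESeq2 gave an adjusted p of 0.00182, and over all alternatives without sgCEBPD 3 the adjusted p ranged from 0.00182 to 0.175. With 8 libraries the log2 fold change was -0.28 (SE 0.15, adjusted p = 0.498).

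TET3 stood at 165 to 181 CPM in controls, 161 to 183 CPM in sgCEBPD 1, 2 and 4 and 194 CPM in sgCEBPD 3, the highest library, and the groups overlapped. TET1 was low, at 4.97, 4.74, 4.08 and 4.58 CPM in controls, 5.51, 7.45 and 5.08 CPM in sgCEBPD 1, 2 and 4 and 4.02 CPM in sgCEBPD 3. Its 41 to 79 counts per library limit the precision, and although sgCEBPD 1, 2 and 4 lay above the controls, the adjusted p without sgCEBPD 3 was 0.343 in edgeR (log2 fold change 0.39, SE 0.18). Leaving out sgCEBPD 2 as well gave a log2 fold change of 0.21. Reads of TET2 per read of TET3 were 0.461 to 0.620 in controls, 0.441, 0.387 and 0.397 in sgCEBPD 1, 2 and 4, and 0.525 in sgCEBPD 3.

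The isocitrate dehydrogenases differed from each other. IDH2, the mitochondrial enzyme on chr15:90083045-90102504, stood at 327, 324, 341 and 345 CPM in controls and at 379, 417, 482 and 369 CPM in sgCEBPD 1 to 4. All 4 sgCEBPD libraries lay above all controls, and sgCEBPD 3 was the highest. The log2 fold change was 0.30 (SE 0.09, adjusted p = 0.298 in edgeR) with 8 libraries and 0.22 (SE 0.05, adjusted p = 0.0576) without sgCEBPD 3. In the latter, the adjusted p was 0.0453 without sgCEBPD 4 and 0.00581 in DESeq2, in a range of 0.00581 to 0.180 over the alternatives.

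IDH1, the cytosolic enzyme on chr2:208236227-208266074, stood at 74.2, 72.4, 67.8 and 71.9 CPM in controls and at 65.2, 63.8 and 60.4 CPM in sgCEBPD 1, 2 and 4. In sgCEBPD 3 it stood at 115 CPM. The 3 libraries lay below all controls and sgCEBPD 3 above all libraries, so the sign of the difference turned with sgCEBPD 3. The log2 fold change was 0.09 (SE 0.20, adjusted p = 0.859 in edgeR) with 8 libraries and -0.18 (SE 0.06, adjusted p = 0.147) without it. Reads of IDH2 per read of IDH1 were 4.41 to 5.03 in controls, 5.81, 6.54 and 6.11 in sgCEBPD 1, 2 and 4, and 4.19 in sgCEBPD 3. The gene pairs for such ratios were picked after the counts were seen, and the ratios carry no test.

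WT1, a zinc finger transcription factor used as a marker of leukemia burden, varied most of the list within the controls. It stood at 1.92, 3.00, 1.27 and 11.2 CPM in sgControl 1 to 4 and at 1.96, 8.30, 69.4 and 10.1 CPM in sgCEBPD 1 to 4. The highest control was 8.80-fold of the lowest, while the median of that ratio was 1.09 over the list and 1.20 over all genes tested (median control level 120.7 and 27.9 CPM). The libraries sgControl 4, sgCEBPD 2 and sgCEBPD 4 stood near each other, and sgCEBPD 3 was 11.9-fold of the mean of the other 7. In edgeR the log2 fold change was 2.37 (SE 1.10, adjusted p = 0.450) with 8 libraries and 0.65 (SE 0.90, adjusted p = 0.811) without sgCEBPD 3. The latter rested on single libraries. It was 1.73 without sgControl 4, 1.09 without sgCEBPD 1, 0.24 without sgCEBPD 4, 0.40 without sgControl 1 and 0.34 without sgControl 3, with an adjusted p of 0.331 to 0.952 over the alternatives.

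The antisense transcript WT1-AS starts within WT1, and 113 bases of WT1 exons on chr11:32387775-32435630 overlap its exons. In raw counts WT1-AS had 1, 0, 0 and 12 reads in sgControl 1 to 4 and 7, 21, 132 and 35 in sgCEBPD 1 to 4, beside 22, 31, 14 and 122 WT1 reads in controls and 21, 88, 708 and 117 in sgCEBPD 1 to 4. Both were highest in sgCEBPD 3, and within the controls both were highest in sgControl 4. The overlap is 2.75% of WT1 exon bases, and without a known strand setting the reads in it cannot be told apart.

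**Figure D3:**
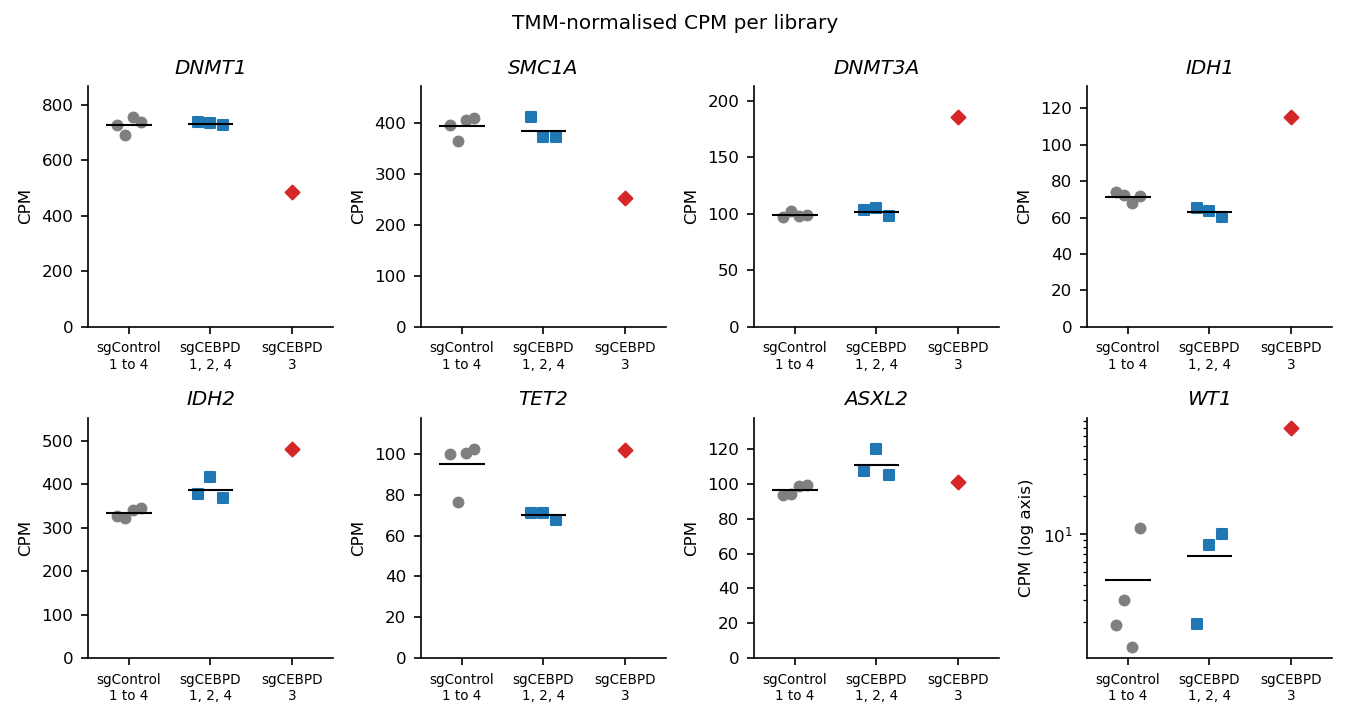
TMM-normalised CPM of 8 genes in each library, with grey circles for sgControl 1 to 4, blue squares for sgCEBPD 1, 2 and 4, a red diamond for sgCEBPD 3 and black lines at the means of the first and second sets. WT1 is on a log axis and the others start at 0. TET2 and IDH1 are lower and IDH2 and ASXL2 higher in the blue squares than in all controls, none of them past edgeR's adjusted threshold, and sgCEBPD 3 is highest for DNMT3A, IDH1, IDH2 and WT1.

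Of the 7 measured Polycomb genes edgeR called 0, against 0.0795% of all genes with 8 libraries and 2.01% without sgCEBPD 3. Without sgCEBPD 3, 2 had no overlap (ASXL2 and BCORL1), against 14.4% of all genes. In sgCEBPD 3, 5 lay below all other libraries, against 34.9% of all genes. ASXL2, a scaffold of the enzyme that removes ubiquitin from histone H2A, stood at 93.7, 94.1, 98.4 and 99.2 CPM in controls and at 107, 120, 101 and 105 CPM in sgCEBPD 1 to 4. All sgCEBPD libraries lay above all controls, sgCEBPD 3 by the smallest step. In edgeR the log2 fold change was 0.17 (SE 0.07, adjusted p = 0.427) with 8 libraries and 0.20 (SE 0.06, adjusted p = 0.114) without sgCEBPD 3. ASXL1, its relative that is often mutated in myeloid leukemia, stood at 127 to 140 CPM in controls and at 122 to 131 CPM in the sgCEBPD libraries, which overlapped.

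BCORL1, a corepressor that works with a Polycomb complex, stood at 28.7, 28.2, 30.2 and 26.8 CPM in controls, 32.7, 31.3 and 34.5 CPM in sgCEBPD 1, 2 and 4 and 26.6 CPM in sgCEBPD 3. It was higher than all controls in the first 3 of these and below them in sgCEBPD 3. The log2 fold change without sgCEBPD 3 was 0.21 (SE 0.07, adjusted p = 0.194 in edgeR).

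The core subunits of PRC2, the complex that methylates H3K27, had overlapping groups apart from sgCEBPD 3. SUZ12 stood at 170 to 178 CPM in controls and 175 to 177 CPM in these libraries, EZH2 at 115 to 123 CPM and 121 to 133 CPM, and EED at 25.1 to 26.7 CPM and 23.1 to 27.6 CPM. All 3, and EZH1, were lowest in sgCEBPD 3, at 163 CPM for SUZ12, 105 CPM for EZH2, 18.9 CPM for EED and 60.8 CPM for EZH1. Reads of EZH1 per read of EZH2 were 0.504 to 0.609 in the other 7 libraries and 0.581 in sgCEBPD 3, within that range.

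Of the 7 genes that set or remove methylation of histone H3 outside PRC2, 0 had an unadjusted edgeR p under 0.05 in either comparison. Over all genes tested, 11.4% had one with 8 libraries and 15.5% without sgCEBPD 3. The largest log2 fold change of the 7 without sgCEBPD 3 was 0.10, for KDM1A. In sgCEBPD 3 they went both ways, 3 above and 4 below all other libraries, against 34.8% and 34.9% of all genes. The 1.5-fold rule was passed by 0 of the 7, against 15.2% of all genes higher and 15.1% lower. KMT2A (151 CPM against 108 to 132 CPM in the other 7), KMT2C (191 against 141 to 161 CPM) and KMT2D (459 against 383 to 431 CPM), which methylate H3K4, stood above all other libraries. MEN1, the menin partner of KMT2A (59.3 against 70.0 to 76.8 CPM), the H3K79 methyltransferase DOT1L (263 against 292 to 317 CPM), the H3K4 demethylase KDM1A (205 against 216 to 253 CPM) and the H3K27 demethylase KDM6A (40.2 against 43.6 to 47.5 CPM) stood below.

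In cohesin the ring subunits SMC1A and SMC3 were low in sgCEBPD 3. SMC1A, on chrX:53374149-53422728, stood at 395, 364, 405 and 409 CPM in controls, at 411, 372 and 371 CPM in sgCEBPD 1, 2 and 4 and at 253 CPM in sgCEBPD 3. Its partner SMC3 stood at 200.3 to 222 CPM, 211 to 233 CPM and 168 CPM. In both, sgCEBPD 3 was the lowest library and the other groups overlapped. The log2 fold change of SMC1A was -0.16 (SE 0.14, adjusted p = 0.645 in edgeR) with 8 libraries and -0.03 without sgCEBPD 3.

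RAD21, which closes the ring, did not share that step. It stood at 464, 446, 455 and 471 CPM in controls and at 481, 486, 469 and 474 CPM in sgCEBPD 1 to 4, with an adjusted p of 0.438 in edgeR without sgCEBPD 3 (log2 fold change 0.07, SE 0.04). Reads of SMC1A per read of RAD21 were 0.765 to 0.890 in the other 7 libraries and 0.539 in sgCEBPD 3, and those of SMC3 were 0.444 to 0.479 and 0.357.

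STAG2, the arm often mutated in leukemia, stood at 198, 198, 211 and 217 CPM in controls and at 227, 234, 231 and 210 CPM in sgCEBPD 1 to 4. The groups overlapped through sgCEBPD 4, and the log2 fold change without sgCEBPD 3 was 0.12 (SE 0.05, adjusted p = 0.320 in edgeR). Reads of STAG2 per read of STAG1 were 2.25 to 2.59 in the other 7 and 2.31 in sgCEBPD 3, within that range. CTCF, the boundary protein that stops cohesin loops, stood at 150 to 159 CPM in controls, 159 to 165 CPM in sgCEBPD 1, 2 and 4 and 139 CPM in sgCEBPD 3.

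Of the splicing factors, SF3B1, the core subunit that binds the branch point, stood at 533 to 556 CPM in controls, 552 to 554 CPM in sgCEBPD 1, 2 and 4 and 599.8 CPM in sgCEBPD 3. SRSF2, which binds exons to promote their use, stood at 214 to 218 CPM in controls, 200.4 to 225 CPM in sgCEBPD 1, 2 and 4 and 154 CPM in sgCEBPD 3. The antisense neighbour MFSD11 stood at 22.3 CPM there and at 13.96 to 16.9 CPM elsewhere, so it was highest where SRSF2 was lowest. Reads of SF3B1 per read of SRSF2 were 2.46 to 2.76 in the other 7 libraries and 3.88 in sgCEBPD 3. ZRSR2, of the minor spliceosome, had 111 to 151 counts per library, with overlapping groups.

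PHF6 and CUX1, a chromatin-binding protein and a homeobox factor, had overlapping groups. PHF6 stood at 70.1 to 77.7 CPM in controls and 74.6 to 85.2 CPM in the sgCEBPD libraries, and CUX1 at 154 to 162 CPM and 135 to 157 CPM, lowest in sgCEBPD 3. The 22 genes not given library by library above had log2 fold changes of -0.14 to 0.11 with 8 libraries and of -0.14 to 0.15 without sgCEBPD 3, with adjusted p-values of at least 0.565 and 0.326 in edgeR. Their levels in sgCEBPD 3 were 0.724- to 1.27-fold of the other 7.

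A wider list of 131 genes of the same complexes was read from the same fit, of which 126 had a row and 124 were tested. In edgeR 0 of 124 were called with 8 libraries (0.0795% of all genes) and 0 without sgCEBPD 3 (2.01%), with 9 (7.26%, against 11.4% of all genes) and 17 (13.7%, against 15.5%) at an unadjusted p under 0.05. DESeq2 called AFF1 and PHC1 in both comparisons, where it called 2.05% and 4.24% of all genes. PHC1, a subunit of Polycomb complex PRC1, stood at 8.72, 8.602, 5.07 and 7.32 CPM in controls and at 12.9, 10.8, 18.1 and 12.7 CPM in sgCEBPD 1 to 4, without overlap (log2 fold change 0.71 without sgCEBPD 3, adjusted p = 0.0826 in edgeR).

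AFF1, a partner of KMT2A in leukemic fusions, stood at 122, 119, 162 and 121 CPM in controls and at 166, 189, 192 and 183 CPM in sgCEBPD 1 to 4. The library sgControl 3 lay near the sgCEBPD libraries, and the log2 fold change without sgCEBPD 3 was 0.45 (adjusted p = 0.109 in edgeR). With sgControl 3 left out too, edgeR called the gene. CXXC5, a zinc finger protein that binds unmethylated CpG, stood at 152 to 164 CPM in controls and at 172 to 204 CPM in the sgCEBPD libraries (adjusted p = 0.107 in edgeR without sgCEBPD 3). In the wider list too, the median log2 fold change was close to 0, at 0.00 with 8 libraries and 0.03 without sgCEBPD 3.

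In sgCEBPD 3, 9 of the 124 were higher past the rule (15.2% of all genes) and 5 lower (15.1%). KDM6B, the inducible H3K27 demethylase, stood at 102 CPM there and 25.8 to 33.4 CPM elsewhere, while its relative KDM6A of the list was lowest there. REC8, a meiotic cohesin subunit, stood at 9.41 CPM there against 2.18 to 4.31 CPM, and PHF1, a PRC2 partner, at 21.8 against 8.68 to 13.4 CPM. The lowest were STAG3 (2.74 against 6.41 to 19.2 CPM), the cohesin acetyltransferase ESCO2 (16.1 against 33.7 to 36.7 CPM) and UHRF1.

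The median log2 ratio of sgCEBPD 3 to the other 7 was -0.07 over the list, -0.04 over the wider list and -0.01 over all genes tested. It was -0.44 over the cycling markers and 2.07 over the 8 tested monocyte and macrophage markers. Of the 124 tested genes of the wider list, 55 were below and 35 above every other library in sgCEBPD 3 (34.9% and 34.8% of all tested genes). The 55 included all 7 condensin and SMC5/6 genes, all 5 IDH relatives and 18 of 26 splicing genes. In other parts more genes were above than below, such as the LSD1 complex (4 above, 1 below), PRC1 (6 and 3) and COMPASS (4 and 3). The part of the cycling and monocyte markers in these levels was not tested.

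**Figure D4:**
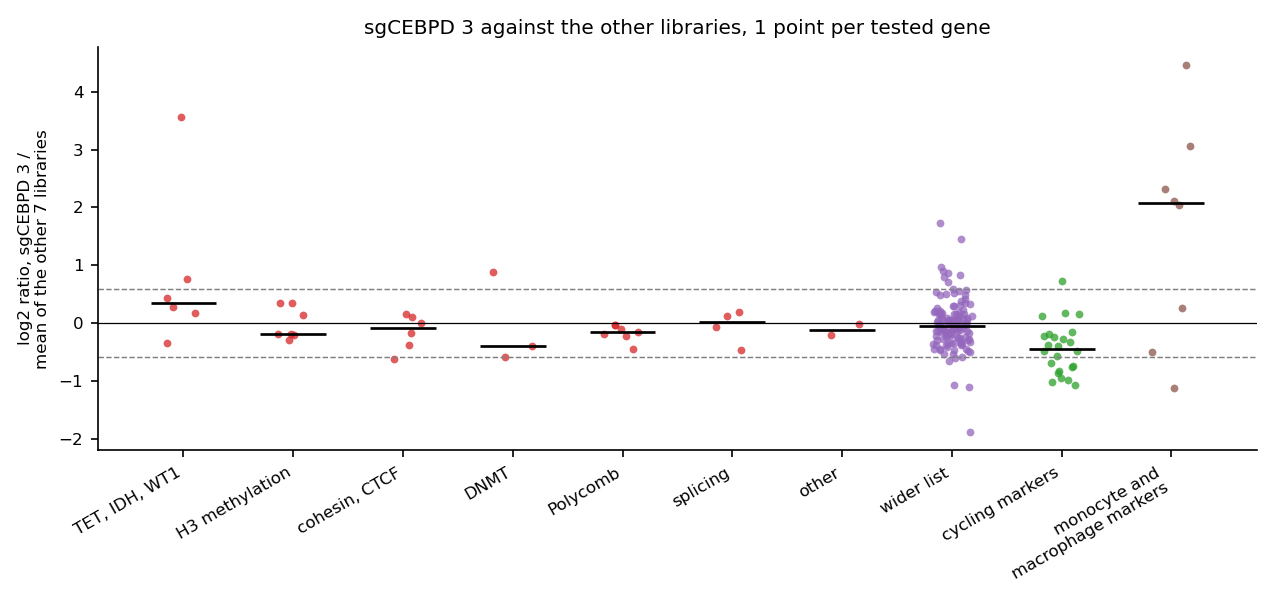
Each point is a tested gene, on the axis of the log2 ratio of sgCEBPD 3 to the mean of the other 7 libraries (0.5 CPM added), by role for the genes of the list in red, then for the wider list, the cycling markers and the monocyte and macrophage markers. Black lines are medians and dashed lines mark 1.5-fold. The medians of the cycling markers (-0.44) and the monocyte and macrophage markers (2.07) lie on opposite sides of 0, and WT1 is the highest red point.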

How the data were processed

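The authors deposited raw read counts per gene, not normalised, in 1 table with a column per library. The submitters' processing notes name FastQC, HISAT2, DESeq2 and the build hg38, with no versions or roles. The counting tool, strand setting and annotation are not given in the sources used here. Each column was tied to a library through the library name in its label, and libraries were not paired by guide number. In R 4.3.3, edgeR 4.0.16 filtered genes with filterByExpr, scaled libraries by TMM and fitted a robust quasi-likelihood test with the group as the only term, once with 8 libraries and once without sgCEBPD 3. Benjamini-Hochberg adjustment covered every gene in a fit, the threshold was 0.05, and the SE is the absolute log2 fold change over the square root of F. All CPM come from the scaling of 8 libraries. As alternatives, DESeq2 1.42.0 was run, edgeR was run with RLE size factors, with library totals, unfiltered, with a stricter filter of 5 CPM on the mean and with the guide number as a block, and libraries were left out in turn. The functions were tested on simulated counts. Exon lengths and positions are from GENCODE 29 (GRCh38, the same assembly as hg38). Genes given library by library had an unadjusted p under 0.05, no overlap without sgCEBPD 3, or a level in sgCEBPD 3 past 1.5-fold and the range of the others. From the wider list the 3 with the lowest p and the 3 farthest each way in sgCEBPD 3 were named. The genes, lists and tests were chosen with earlier results of these data known.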

Additional observations from a re-analysis of the deposited data

Results flagged for a closer look

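In 26 groups of 4 libraries examined for the 13 genes given library by library, 6 held a library far from the other 3 of its group. Chance gives this in about 1 in 20 groups of unselected genes, but a level in sgCEBPD 3 apart from the rest was one of the grounds on which genes were chosen, so that share is no yardstick here. The library was sgCEBPD 3 for 5 genes, of which DNMT1, DNMT3A, IDH1 and WT1 were chosen on that ground. It was low for DNMT1 (484 CPM) and high for DNMT3A (185 CPM), IDH1 (115 CPM), WT1 (69.4 CPM, with the other 3 sgCEBPD libraries spread from 1.96 to 10.1 CPM) and TET2 (102 CPM). For TET2 that level was inside the range of the controls. The sixth was TET2 in sgControl 2, at 76.4 CPM, against 99.9 to 102 CPM in the other controls and 67.7 to 70.9 CPM in sgCEBPD 1, 2 and 4.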

How the results depend on the processing

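Of the genes on the list, 0 were called with 8 libraries under every alternative run. Without sgCEBPD 3, 2 were called by DESeq2 and 2 with no filter (TET2 and IDH2 in each), 1 with library totals (TET2), and 0 or 1 when a further library was left out (TET2 without sgControl 2, IDH2 without sgCEBPD 4). From the wider list, DESeq2 called 2 in each comparison. Without sgCEBPD 3, 1 was called with no filter (PHC1), 1 with the replicate block (AFF1), and 0 or 1 when a further library was left out. Over all genes with 8 libraries, 11 were called in the comparison as reported, 301 by DESeq2, 20 with no filter, 1 with a replicate block on the guide number, and 0 to 283 when a library was left out (0 without sgCEBPD 2, with 1345 genes at an unadjusted p under 0.05 in edgeR, and 283 without sgCEBPD 3). Without sgCEBPD 3, 283 were called as reported, 609 by DESeq2, and 66 to 312 when a further library was left out. The causes were not tested. The sign of the log2 fold change turned for DNMT1 with 8 libraries when sgCEBPD 3 was left out (range over the libraries left out -0.16 to 0.0091). Without sgCEBPD 3 it turned under library totals (-0.0018) and when sgControl 2 was left out (range -0.015 to 0.026). It turned for IDH1 with 8 libraries when sgCEBPD 3 was left out (range -0.18 to 0.18). Of 351 refits of single genes, 340 kept direction and side of the threshold and 7 passed it newly. With library totals in place of TMM, chosen after seeing the data, the same 5 genes of the list passed the 1.5-fold rule in sgCEBPD 3. Deviations from the group mean correlated across genes at -0.08 to 0.06 between same-numbered libraries and at -0.08 to 0.08 between other numbers. Of 8 libraries, 2 correlated best with their own number. The sgCEBPD mean is moved by sgCEBPD 3, so this check could miss a shared deviation. The numbers were not taken as pairs because no label says that they pair libraries. The median level of the list was 11.3 CPM per kb with merged exons and 15.6 CPM per kb with the longest transcript. Precision was limited for U2AF1, TET1, ZRSR2 and WT1, with as few as 78, 41, 111 and 14 counts in a library.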
